A study of Mus musculus with 7 samples.

Results

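The genes described here encode the beta subunits of the sodium-potassium pump, *Atp1b1*, *Atp1b2* and *Atp1b3*, and the calcium pumps of the plasma membrane, *Atp2b1*, *Atp2b2*, *Atp2b3* and *Atp2b4*. They were picked by their symbols, as pumps on which neurons spend much of their ATP, and are 7 of the 24346 genes in the deposited table. All 7 were among the 12988 genes that averaged 1 FPKM or more (fragments scaled to transcript length and to the mapped fragments of the library), the genes that were tested. Bulk RNA-seq was done on the cerebral cortex of 4 CrT-/y and 3 CrT+/y male littermates, with 1 library for each animal. All animals were on a C57BL/6J background and were taken at postnatal day 100. CrT-/y males lack exons 5 to 7 of *Slc6a8* in every cell. This gene lies on the X chromosome and encodes the creatine transporter (CrT), and CrT+/y males carry the intact gene. No other allele and no treatment is named for any animal. The question was whether the transcripts of these ATP-consuming pumps differ in a cortex in which the cells lack the transporter for creatine, the substrate from which phosphocreatine is made to buffer ATP.

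The sodium-potassium pump moves sodium out of the cell and potassium into it, at the cost of ATP, and restores both gradients after neuronal firing. Its alpha subunit does the transport, while its beta subunit brings the alpha subunit to the membrane and sets how well it binds potassium. The calcium pumps encoded by the *Atp2b* genes use ATP to clear calcium from the cytosol after activity, and are switched on by calmodulin. *Atp1b1* encodes the main beta subunit of neurons. *Atp1b2* encodes a beta subunit that is abundant in astrocytes and also acts in adhesion between cells, and *Atp1b3* a beta subunit found in many tissues. *Atp2b1* is expressed in most tissues, *Atp2b2* and *Atp2b3* mainly in neurons and other excitable cells, and *Atp2b4* widely.

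Members of each family share stretches of coding sequence, so the longest identical run of each pair was looked up in the GENCODE transcripts to see how far 150-base reads can tell the genes apart. Between beta subunits the longest run was 19 bases, in *Atp1b1* and *Atp1b2* (coding bases 645 to 663 and 603 to 621). Between calcium pumps it was 56 bases, in *Atp2b2* and *Atp2b3* (coding bases 1300 to 1355 and 1357 to 1412). Both pairs are shown 5′ to 3′ with 10 bases on either side, and the capitals mark the identical run.
Atp1b1: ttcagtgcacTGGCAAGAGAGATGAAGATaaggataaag
Atp1b2: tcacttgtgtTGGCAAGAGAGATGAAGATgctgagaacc
Atp2b2: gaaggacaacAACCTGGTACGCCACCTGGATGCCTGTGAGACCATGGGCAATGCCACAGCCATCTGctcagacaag
Atp2b3: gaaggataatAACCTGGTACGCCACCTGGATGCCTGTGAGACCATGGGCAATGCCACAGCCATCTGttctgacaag
The longest runs of the remaining pairs within each family were 11 to 35 bases. All of these runs were shorter than a read. Of all windows of 50 bases in the *Atp1b1* transcript, 18.9% also lay in a transcript of *Nme7*, a neighbour on the opposite strand that overlaps the *Atp1b1* 3′ end. Whether the counting used strand was not stated. *Nme7* averaged 10.04 FPKM in controls and 9.77 FPKM in CrT-/y animals, far below *Atp1b1*. The share was 11.7% for *Atp1b3*, with the transcript of *Gm1848*, and 2.13% or less for the other 5 genes. Reads in this stretch of *Atp1b1* could belong to either transcript. *Gm1848* does not overlap *Atp1b3* in the annotation. Reads identical in these 2 may have been left out, since the authors kept unique alignments. The levels of *Atp1b1* and *Atp1b3* are uncertain to that extent.

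*Slc6a8* itself measured 12.4, 14.9, 14.7 and 15.7 FPKM in CrT-/y replicates 0, 1, 2 and 3, against 32.3, 29.6 and 28.05 FPKM in CrT+/y replicates 1, 2 and 3. The groups were apart, with CrT-/y animals at 48.1% of the CrT+/y mean (log2 fold change -1.05, standard error 0.09, limma adjusted p = 0.00238). Each of the 7 animals was on the side its label gives. These values cover the whole gene, deleted exons included. Markers of cortical neurons and glia were present in every animal: the summed FPKM of *Rbfox3*, *Snap25*, *Syt1* and *Stmn2* was between 2264 and 2686, and that of 5 astrocyte markers between 329.6 and 392.9. None of the astrocyte, pan-neuronal, oligodendrocyte, microglia, oligodendrocyte precursor or red blood cell markers was called between genotypes in limma. *Neurod6* (excitatory neurons), *Pecam1* and *Flt1* (endothelium) were called lower and *Gad1* (inhibitory neurons) higher in CrT-/y animals. *Gad1* was the only one called of 6 inhibitory neuron markers, of which 4 had a higher and 2 a lower fitted mean. The summed FPKM of these markers overlapped, at 842.0 to 980.9 in CrT-/y and 907.4 to 925.7 in CrT+/y animals. Markers of tissue next to the cortex were at unequal levels between animals, and the cause was not tested. The choroid plexus markers summed to 397.9 FPKM at most in CrT+/y animals, in replicate 2, and to 51.5 FPKM at most in CrT-/y animals. Striatal markers were between 11.5 and 89.5 FPKM. Olfactory bulb markers were between 5.90 and 16.1 FPKM in CrT-/y and between 2.90 and 5.17 FPKM in CrT+/y animals, and *Cdhr1* among them was called higher. CrT+/y replicate 3 stood apart from the other controls: limma gave it the lowest array weight (0.34), and it was the lowest CrT+/y animal in 57.5% of the genes called lower and in 38.8% of all tested genes. Since this is bulk tissue, fewer cells of a type and less RNA per cell cannot be told apart in any value given here.

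The 7 genes covered a wide range of levels, and their order was the same in every animal. FPKM are scaled to length, so levels can be set side by side between genes. *Atp1b1* was highest, with a mean of 755.0 FPKM ± 55.2 (SD, n = 3) in CrT+/y animals. By its mean log2 level over all 7 animals it was above 99.8% of the tested genes. It was followed by *Atp1b2* (325.6 ± 47.5), *Atp2b2* (209.3 ± 16.8), *Atp2b1* (171.7 ± 17.6), *Atp2b4* (62.5 ± 2.40), *Atp1b3* (50.3 ± 2.14) and *Atp2b3* (30.7 ± 2.09 FPKM, SD, n = 3). Each gene was above the next in 7 of 7 animals. Across animals, only the ranges of *Atp2b2* and *Atp2b1* overlapped, since *Atp2b2* went down to 165.9 FPKM and *Atp2b1* up to 184.5 FPKM. The neuronal gene *Atp2b2* and the ubiquitous gene *Atp2b1* therefore kept their order within each animal, with *Atp2b2* higher by 0.11 to 0.46 on the log2 scale, while their ranges across animals overlapped. The log2 levels varied between animals with an SD of 0.07 (*Atp1b3*) to 0.23 (*Atp1b2*), where the median tested gene had 0.13.

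**Figure D1:**
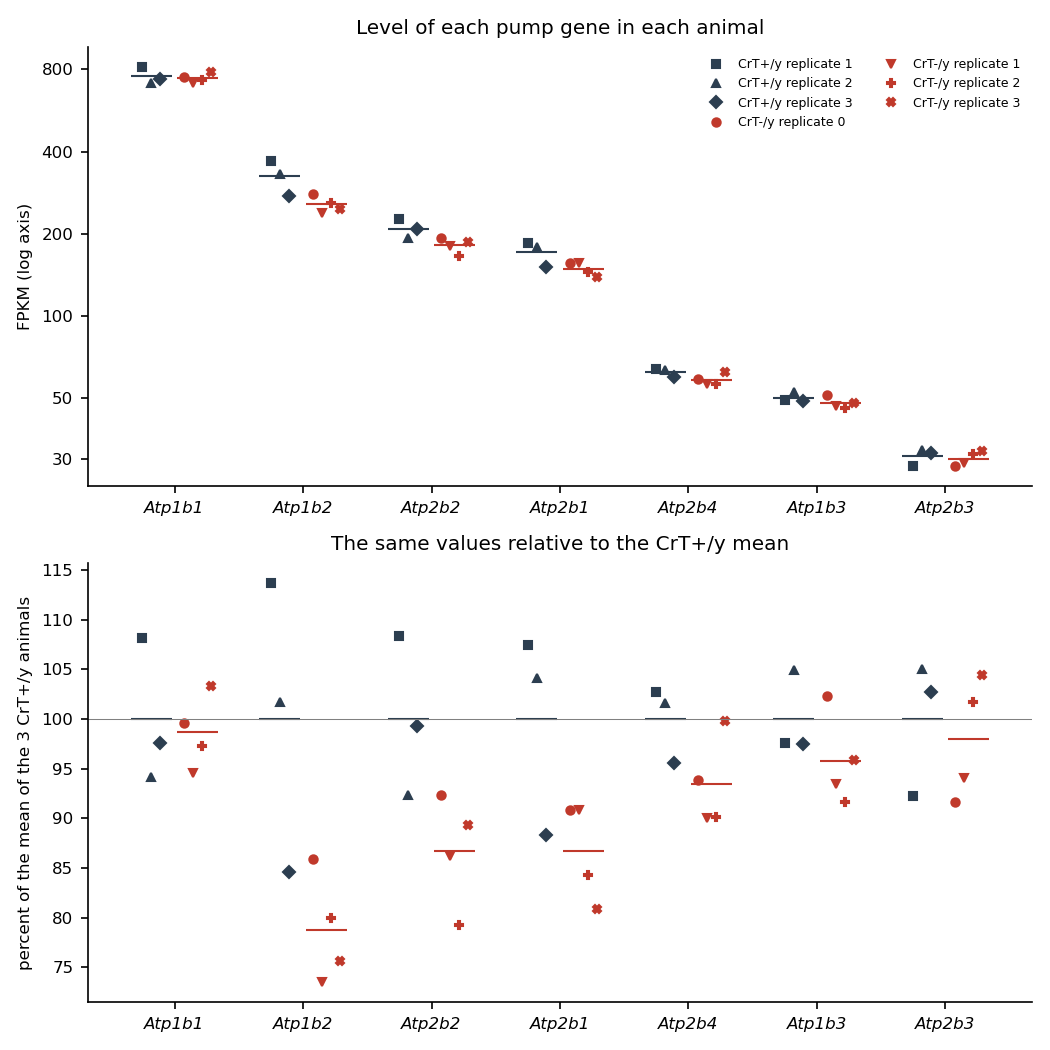
FPKM of the 7 pump genes in each of the 3 CrT+/y (dark) and 4 CrT-/y animals (red), on a log axis above and as percent of the CrT+/y mean below; points are animals and lines are group means. *Atp1b2* lay at 78.7% of the CrT+/y mean and *Atp2b1* and *Atp2b2* at 86.7% and 86.8%, with CrT+/y replicate 3 close to or among the CrT-/y animals for *Atp1b2* and *Atp2b1*.

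Between genotypes, *Atp1b2* was the only one of the 7 pump genes to pass the test, and it was lower in CrT-/y animals. That is 1 of 7 called, where 10.1% of all tested genes were called in either direction and 7.25% were called lower, at a limma adjusted p under 0.1, so a single call does not set the 7 genes apart from the rest of the table. All 7 genes had a lower fitted mean in CrT-/y animals, as had 58.2% of all tested genes, although *Atp1b1*, *Atp1b3* and *Atp2b3* changed sign under other scalings. The median log2 fold change was -0.10 over the 7 genes and -0.03 over all tested genes. Of all calls, 28.6% were higher in CrT-/y animals, and this share was 46.5% to 61.5% under other scalings and the length correction. At an unadjusted limma p under 0.05, 3 of the 7 genes were lower (*Atp1b2*, *Atp2b1* and *Atp2b2*), beside 16.8% of all tested genes, or 25.0% counting both directions. Animals of the genotypes did not overlap in 1 of the 7 genes, *Atp2b2*, with CrT-/y below CrT+/y, a pattern seen in 15.0% of all tested genes. The smallest two-sided p that the exact permutation test can reach with these 7 animals (35 splits) is 0.0286.

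Of the beta subunit genes, *Atp1b2* (chromosome 11, 69599736 to 69605942, minus strand, mm10, 7 exons, transcript of 2842 bp) measured 279.8, 239.3, 260.4 and 246.2 FPKM in CrT-/y replicates 0 to 3. Among controls, CrT+/y replicates 1 to 3 reached 370.2, 331.2 and 275.6 FPKM. All CrT-/y animals were below CrT+/y replicates 1 and 2, but CrT-/y replicate 0 lay just above CrT+/y replicate 3, so the groups overlapped. CrT-/y animals averaged 256.4 ± 17.9 FPKM (SD, n = 4) against 325.6 ± 47.5 FPKM (SD, n = 3) for the controls, 78.7% of the control level. *Atp1b2* fell by 0.34 on the log2 scale (standard error 0.10, 95% confidence interval -0.56 to -0.11, limma adjusted p = 0.0905). The exact permutation test gave p = 0.0571. The call was close to the threshold: it was lost without any 1 of the other 6 animals (adjusted p between 0.112 and 0.233 in limma), while without CrT+/y replicate 3 the log2 fold change was -0.45 with a limma adjusted p of 0.00976, in a fit that called 28.7% of all tested genes. The markers of astrocytes, the cells in which this subunit is abundant, overlapped between the genotypes in their summed FPKM (329.6 to 384.4 in CrT-/y and 335.5 to 392.9 in CrT+/y animals), with 4 of 5 markers lower and none called. Their part in the *Atp1b2* result was not tested.

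*Atp1b1* (chromosome 1, 164437109 to 164458355, minus strand, 6 exons, transcript of 2580 bp) did not pass the test. Its transcripts measured 752.0, 714.4, 734.6 and 779.9 FPKM in CrT-/y replicates 0 to 3. CrT+/y replicates 1 to 3 had 816.9, 711.0 and 737.1 FPKM. The lowest and the highest of the 7 values were both from CrT+/y animals. The means were 745.2 ± 27.8 FPKM (SD, n = 4) and 755.0 ± 55.2 FPKM (SD, n = 3), and the log2 fold change was -0.02 (95% confidence interval -0.17 to 0.14, limma adjusted p = 0.903). The interval leaves room for a difference of about the same size in either direction.

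*Atp1b3* (chromosome 9, 96332655 to 96364442, minus strand, 7 exons, transcript of 1994 bp) measured 51.5, 47.0, 46.1 and 48.2 FPKM in CrT-/y replicates 0 to 3. Among controls, CrT+/y replicates 1 to 3 reached 49.1, 52.8 and 49.1 FPKM. The groups overlapped through CrT-/y replicate 0, and the other 3 CrT-/y animals lay below all controls. The log2 fold change was -0.06 (95% confidence interval -0.19 to 0.07, limma adjusted p = 0.537).

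Added up, the beta subunit transcripts came to 1083, 1001, 1041 and 1074 FPKM in CrT-/y replicates 0 to 3, against 1236, 1095 and 1062 FPKM in CrT+/y replicates 1 to 3. The CrT-/y mean was 92.8% of the CrT+/y mean and the groups overlapped. Within this sum, *Atp1b2* held 25.8%, 23.9%, 25.01% and 22.9% in the CrT-/y animals. It held 29.9%, 30.3% and 26.0% in the controls, so all controls were above all CrT-/y animals, by a narrow margin for CrT+/y replicate 3. The ratio of *Atp1b1* to *Atp1b2* was 2.69, 2.99, 2.82 and 3.17 in CrT-/y and 2.21, 2.15 and 2.67 in CrT+/y animals. The groups were barely apart, at CrT-/y replicate 0 and CrT+/y replicate 3. As *Atp1b3* is a small part of the sum, the ratio largely restates the share of *Atp1b2*. These shares and ratios were not tested.

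**Figure D2:**
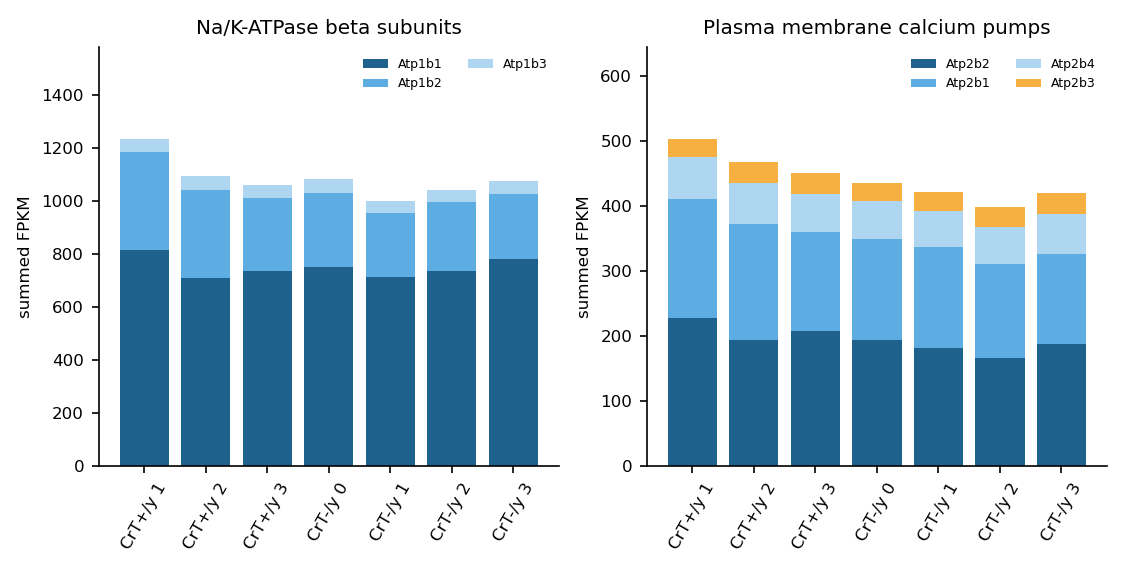
Summed FPKM of the 3 beta subunit genes (left) and the 4 plasma membrane calcium pump genes (right) in each animal, stacked by gene, with axes from 0. The calcium pump sums of the 4 CrT-/y animals (398.2 to 436.2 FPKM) sit below those of the 3 CrT+/y animals (450.7 to 504.0 FPKM), while the beta subunit sums overlap.

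Of the calcium pump genes, *Atp2b2* (chromosome 6, 113743831 to 114042613, minus strand, 22 exons, transcript of 8877 bp) measured 193.3, 180.5, 165.9 and 186.9 FPKM in CrT-/y replicates 0 to 3. CrT+/y replicates 1 to 3 had 226.9, 193.4 and 207.8 FPKM. The groups were apart, though CrT-/y replicate 0 and CrT+/y replicate 2 had almost the same value. CrT-/y animals averaged 181.6 ± 11.7 FPKM (SD, n = 4) against 209.3 ± 16.8 FPKM (SD, n = 3) for the controls, 86.8% of the control level. The log2 fold change was -0.20 (standard error 0.07, 95% confidence interval -0.37 to -0.04) and missed the threshold after adjustment (limma adjusted p = 0.136, exact permutation p = 0.0571). Of all tested genes, 16.3% had a log2 fold change of -0.2 or lower, so a difference of this size was common in these data.

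*Atp2b1* (chromosome 10, 98914406 to 99026143, plus strand, 21 exons, transcript of 7130 bp) measured 156.0, 156.0, 144.7 and 138.9 FPKM in CrT-/y replicates 0 to 3. Among controls, CrT+/y replicates 1 to 3 reached 184.5, 178.8 and 151.6 FPKM. As with *Atp1b2*, CrT+/y replicates 1 and 2 lay above all CrT-/y animals and CrT+/y replicate 3 fell among them. The mean was 148.9 ± 8.53 FPKM (SD, n = 4) against 171.7 ± 17.6 FPKM (SD, n = 3), 86.7% of the control level. The log2 fold change of -0.20 (standard error 0.08, 95% confidence interval -0.38 to -0.02) did not pass the test (limma adjusted p = 0.163, exact permutation p = 0.114). Without CrT+/y replicate 3 it was -0.29 with a limma adjusted p of 0.0185, in a fit that called 28.7% of all tested genes. Without any 1 of the other animals *Atp2b1* was not called (limma adjusted p between 0.197 and 0.387).

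*Atp2b4* (chromosome 1, 133699457 to 133801041, minus strand, 21 exons, transcript of 11725 bp) measured 58.7, 56.3, 56.4 and 62.4 FPKM in CrT-/y replicates 0 to 3. CrT+/y replicates 1 to 3 had 64.3, 63.6 and 59.8 FPKM. Only CrT-/y replicate 3 lay within the range of the controls. The log2 fold change was -0.10 (95% confidence interval -0.23 to 0.03, limma adjusted p = 0.312).

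*Atp2b3* (chromosome X, 73503086 to 73571005, plus strand, 21 exons, transcript of 4483 bp) measured 28.2, 28.9, 31.2 and 32.1 FPKM in CrT-/y replicates 0 to 3. Among controls, CrT+/y replicates 1 to 3 reached 28.3, 32.2 and 31.5 FPKM. The animals of the genotypes were interleaved, with a log2 fold change of -0.03 (95% confidence interval -0.19 to 0.13, limma adjusted p = 0.826). The gene ends 102.1 kb before the start of *Slc6a8* (73673150 to 73682502), with 2 listed genes between them. Within 500 kb of *Slc6a8* 20 of 36 listed genes were tested, and 2 of them were called lower (*Bcap31*, log2 fold change -0.25, and *F8a*, -0.23) and 1 higher (*Ssr4*, 0.41) in limma, beside 10.1% of all tested genes called in either direction. When 1 animal was left out, the call of *F8a* was lost in 6 of 7 fits, that of *Bcap31* in 5 and that of *Ssr4* in 1. *F8a* was also not called under any other scaling, and *Bcap31* was not called with quantile normalization or upper quartile scaling. *Atp2b3* was closer to no difference than each of these 3. They were picked by the threshold, so this comparison does not set *Atp2b3* apart from the other neighbours.

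**Figure D3:**
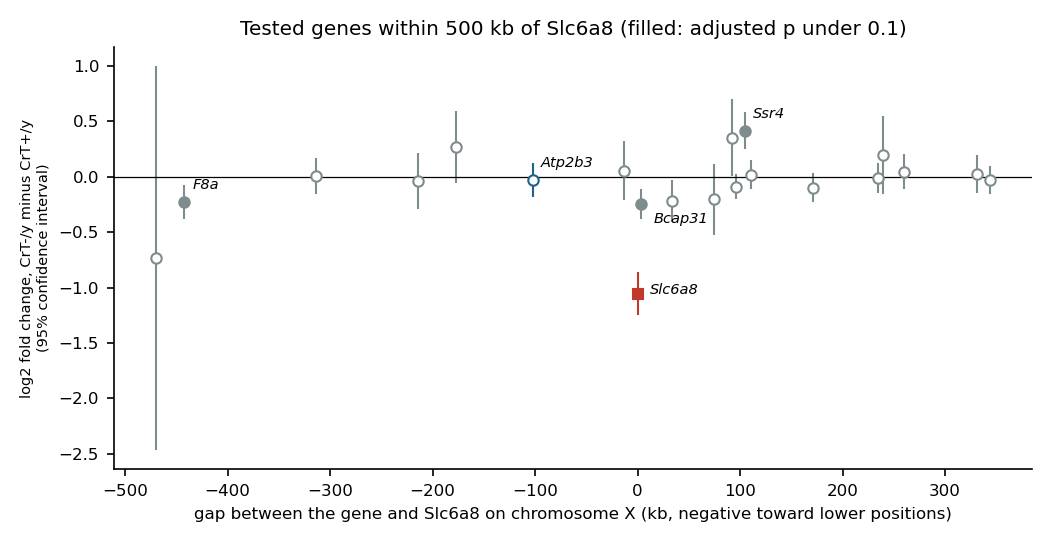
Log2 fold change (CrT-/y minus CrT+/y) of the tested genes within 500 kb of *Slc6a8* against the gap between the gene and *Slc6a8* in kb, with 95% confidence intervals; filled points passed the limma threshold. *Atp2b3* (blue) lies at -0.03 and *Slc6a8* (red) at -1.05.

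The calcium pump transcripts summed to 436.2, 421.6, 398.2 and 420.3 FPKM in CrT-/y replicates 0 to 3, against 504.0, 468.0 and 450.7 FPKM in CrT+/y replicates 1 to 3. The sums did not overlap between genotypes, with CrT-/y replicate 0 closest to CrT+/y replicate 3. Of all tested genes taken singly, 15.0% had all CrT-/y below all CrT+/y animals. The CrT-/y mean of the sum was 88.4% of the CrT+/y mean (419.1 ± 15.7 FPKM, SD, n = 4, against 474.2 ± 27.2 FPKM, SD, n = 3). Most of both sums came from *Atp2b1* and *Atp2b2*. The make-up of the sum overlapped between genotypes for each gene: in CrT-/y and CrT+/y animals, *Atp2b2* held 43.3% and 44.1% on average, *Atp2b1* 35.5% and 36.2%, *Atp2b4* 14.0% and 13.2%, and *Atp2b3* 7.20% and 6.50%. With upper quartile scaling the CrT-/y mean of the sum was 92.3% of the CrT+/y mean. Whether the sums of single animals stayed apart under that scaling was not examined. As a score over chosen genes the sum was not tested.

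The 7 genes did not follow 1 common profile over the animals. CrT+/y replicate 1 had the highest value of all 7 animals in 5 of them (*Atp1b1*, *Atp1b2*, *Atp2b1*, *Atp2b2* and *Atp2b4*) and in 28.2% of all tested genes. CrT+/y replicate 2 was highest for *Atp1b3* and *Atp2b3*, and no CrT-/y animal was highest for any of the 7. Likeness of profiles was measured as the root mean square difference of log2 levels, each centred on its mean over the 7 animals. The closest pair among the 7 genes was *Atp1b3* and *Atp2b4* (0.06), and the farthest *Atp1b2* and *Atp2b3* (0.24). *Atp1b2* was closer to the calcium pump *Atp2b1* (0.11) than to *Atp1b1* (0.20) or *Atp1b3* (0.18). Among all tested genes, the profiles nearest to *Atp1b2* were those of *Myef2* (0.02), *Hnrnph2* (0.03) and *Zc3h13* (0.03). *Myef2* measured 38.1, 33.8, 36.5 and 34.3 FPKM in CrT-/y replicates 0 to 3 and 53.0, 47.1 and 38.5 FPKM in CrT+/y replicates 1 to 3. The nearest to *Atp2b1* were *Sypl*, *Aebp2* and *Srcap*, and to *Atp2b2* they were *Cdh22*, *Tusc2* and *Pak1*. The nearest to *Atp1b1* were *BC017158*, *Kcnip1* and *Lix1*, to *Atp1b3* *Syn3* and *Ercc4*, to *Atp2b3* *Dmxl2*, *Sdk2* and *Spon1*, and to *Atp2b4* *Sfxn5* and *Lrrc45*. All of these differed from their pump gene by 0.02 to 0.04 over the 7 animals.

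Of 35 genes listed as partners of the pumps, because they assemble with them, regulate them or move the same ions, 27 were tested. Of these, 2 were called lower and 1 higher in limma, 16 had a lower and 11 a higher fitted mean in CrT-/y animals, and the median log2 fold change was -0.04. Over all tested genes, 7.25% were called lower and 2.9% higher, 58.2% had a lower fitted mean, and the median was -0.03, so the partner genes were close to the background. *Atp1b4*, a relative of the beta subunits known from muscle, was close to 0 FPKM in all animals and was not tested.

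The partner genes that passed were 2 calcium pumps of internal membranes and 1 regulator of the sodium-potassium pump. *Atp2a2*, which pumps calcium into the endoplasmic reticulum, measured 247.6, 243.2, 239.0 and 251.8 FPKM in CrT-/y and 290.7, 265.4 and 280.4 FPKM in CrT+/y animals. It fell by 0.18 on the log2 scale (limma adjusted p = 0.0908), with all CrT-/y animals below all controls. *Atp2c1*, which pumps calcium and manganese into the Golgi, measured 45.3, 46.5, 45.7 and 45.9 FPKM in CrT-/y and 56.5, 54.4 and 49.1 FPKM in CrT+/y animals. It fell by 0.22 (limma adjusted p = 0.0724), again without overlap. *Fxyd2*, the gamma subunit that modulates the sodium-potassium pump and is best known from the kidney, measured 5.71, 7.80, 6.91 and 4.61 FPKM in CrT-/y and 2.97, 3.78 and 4.68 FPKM in CrT+/y animals. It rose by 0.70 (limma adjusted p = 0.0771), with an overlap between CrT-/y replicate 3 and CrT+/y replicate 3. The calls of *Atp2a2*, *Atp2c1* and *Fxyd2* were lost in 5, 6 and 5 of the fits that each left out 1 animal, with a limma adjusted p of up to 0.225 for *Atp2a2*, 0.187 for *Atp2c1* and 0.218 for *Fxyd2*. All 3 were called without CrT+/y replicate 3, in the fit that called 28.7% of all tested genes. *Atp2a2* and *Atp2c1* were not called with upper quartile scaling, median centring or the length correction (limma adjusted p 0.108 to 0.174). *Fxyd2* was called with upper quartile scaling and median centring, and not with the length correction (limma adjusted p = 0.109).

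*Calm2* and *Calm3*, which encode the calmodulin that activates the plasma membrane calcium pumps, had lower fitted means in CrT-/y animals without passing the test. *Calm2* measured 1569, 1500, 1416 and 1460 FPKM in CrT-/y and 2122, 1815 and 1572 FPKM in CrT+/y animals (log2 fold change -0.30, limma adjusted p = 0.124), with CrT-/y replicate 0 just below CrT+/y replicate 3. Without CrT+/y replicate 3 its log2 fold change was -0.40, with a limma adjusted p of 0.0151, in a fit that called 28.7% of all tested genes. Without any 1 of the other animals *Calm2* was not called (limma adjusted p between 0.170 and 0.292). *Calm3* had a log2 fold change of -0.18 (limma adjusted p = 0.192). Next by p came an exchanger and a pump-interacting protein with higher means in CrT-/y animals. *Slc24a4*, an exchanger that takes calcium and potassium out in exchange for sodium, had a log2 fold change of 0.20. *Nkain2*, a protein that binds the beta subunit, had 0.16. Their limma adjusted p-values were 0.206 and 0.215. The accessory proteins of the plasma membrane calcium pumps, *Nptn* and *Bsg*, had log2 fold changes of -0.10 and -0.08 and were not called.

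**Figure D4:**
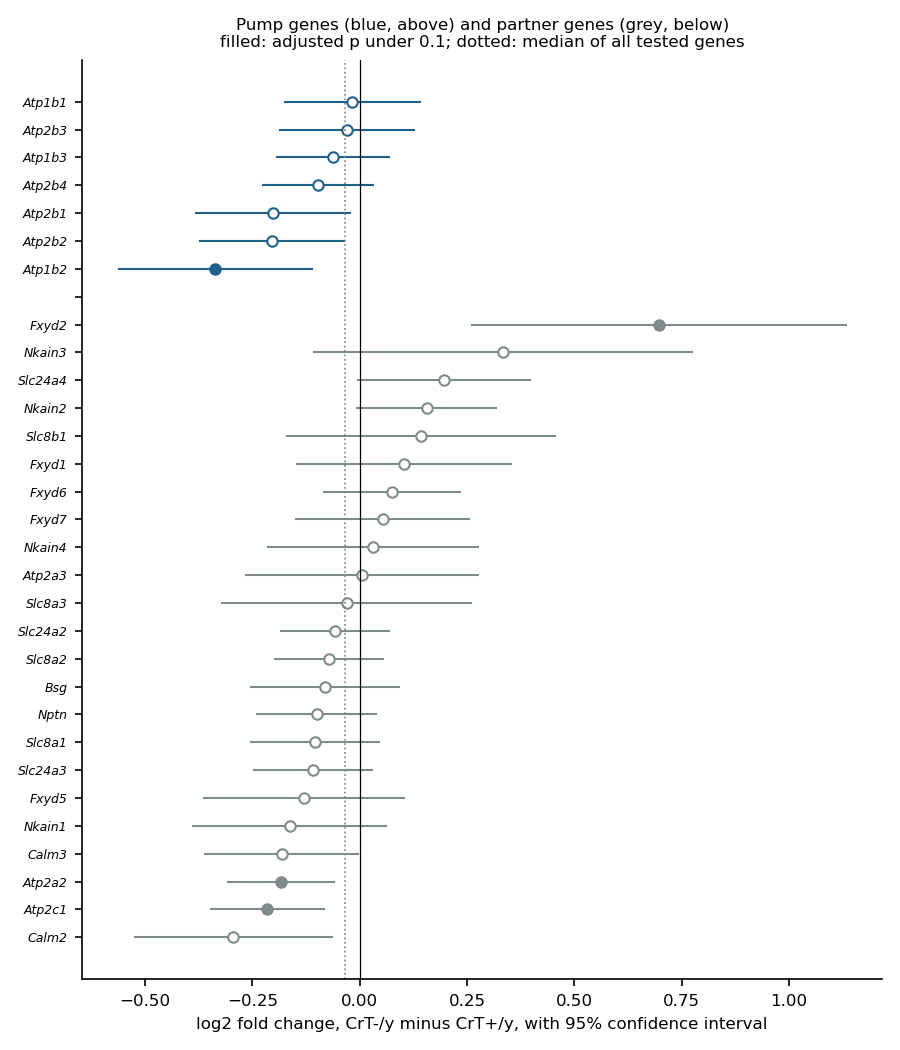
Log2 fold change (CrT-/y minus CrT+/y) with 95% confidence interval of the 7 pump genes (blue) and 23 of the 27 tested partner genes (grey); filled points passed the limma threshold, and the dotted line is the median of all tested genes at -0.03. Only *Atp1b2* is filled among the pump genes, and *Atp2a2*, *Atp2c1* and *Fxyd2* among the partners.

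The direction of the 7 genes was compared across 19 alternative fits, 12 with another setting and 7 without 1 animal. *Atp1b2*, *Atp2b1*, *Atp2b2* and *Atp2b4* were lower in CrT-/y animals in 19 of 19. The fits were not independent: the filters and the variance trend left each estimate unchanged, and the pseudocounts barely moved it. *Atp1b1* was lower in 13, *Atp1b3* in 17 and *Atp2b3* in 11, so no direction can be given for these 3 genes. *Atp1b2* stayed past the threshold in 5 of 19 fits (log2 fold change -0.45 to -0.24, limma adjusted p 0.00976 to 0.274). *Atp2b1* passed in 2 of them, with array weights and without CrT+/y replicate 3, and *Atp2b2* passed in 1, with quantile normalization, where 8.34% of all tested genes were called. None of the 7 genes was called with upper quartile scaling, median centring or a correction for transcript length. Of all tested genes, 9.27%, 7.83% and 9.55% were called in these fits. With shares of this size, the lack of a call among 7 genes does not set them apart.

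**Figure D5:**
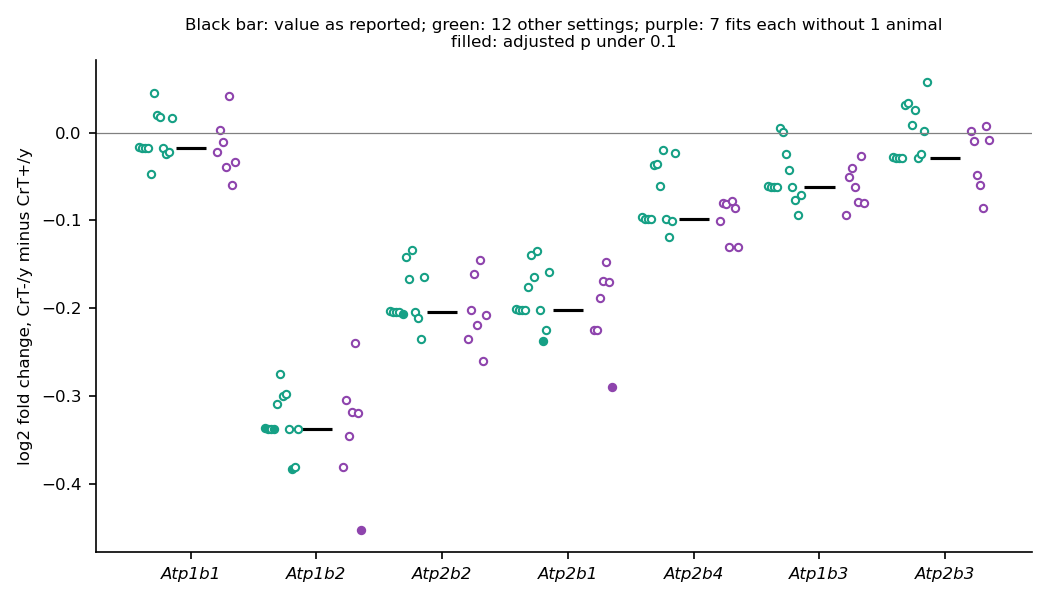
Log2 fold change of each pump gene as reported (black bar), under 12 other settings (green) and in 7 fits without 1 animal each (purple); filled points had a limma adjusted p under 0.1. *Atp1b2* ranges from -0.45 to -0.24 and *Atp2b3* from -0.09 to 0.06, on both sides of 0.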

How the data were processed

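Total RNA of 7 cortices was made into libraries with the Universal Plus mRNA-Seq kit and sequenced as paired 150-base reads. The authors aligned the reads to mm10 with the Tuxedo protocol (Bowtie and Cuffnorm are named in the submitters' processing notes), kept unique alignments with at most 2 mismatches, and deposited FPKM values per gene and animal. FPKM are already scaled to length and depth. They are not counts. The study gives the sequenced reads of each library under names that are not tied to each CrT-/y animal of the table, and they were not used here.

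Genotype and animal number were taken from the sample labels. To each value 0.1 FPKM was added before taking log2, which understates changes of low genes, and a gene was kept when it averaged 1 FPKM or more over the animals. Genotype was tested with limma 3.58.1 (R 4.3.3) with a variance trend, p-values adjusted by Benjamini-Hochberg across the 12988 genes kept, at an adjusted p under 0.1, on animals as replicates. Single genes were also tested with an exact permutation test (two-sided). Positions and transcripts are from GENCODE release M21, matched by symbol. The members, lists and tests were chosen with earlier results of these data known. Named are the 7 genes, *Slc6a8*, the 3 nearest profiles of each gene, partner genes and neighbours of *Slc6a8* past the threshold, and the 5 other partners of smallest p. Some genes and results under this rule are not reported here. *Nptn*, *Bsg* and the marker genes named were added after their values were seen. Alternatives were 2 pseudocounts, 2 filters, 4 scalings or corrections, no variance trend, array weights, a block on animal numbers and each animal left out.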

Additional observations from a re-analysis of the deposited data

How the results depend on the processing

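The number of tested genes called, 1318 as reported, was 353 without a filter on low values and 64 to 3736 when 1 animal was left out, the highest without CrT+/y replicate 3 and the lowest without CrT-/y replicate 1. The share of calls that were higher in CrT-/y animals was 28.6% as reported, 48.8% with quantile normalization, 61.5% with upper quartile scaling, 48.2% with median centring and 46.5% with the length correction. Of the 7 pump genes, 1 was called as reported, 0 without a filter, with upper quartile scaling, median centring, the length correction or no variance trend, 2 with array weights (*Atp1b2* and *Atp2b1*), and 0 to 2 when 1 animal was left out. Quantile normalization called 1, *Atp2b2* in place of *Atp1b2*. Of the partner genes, 3 were called as reported, 1 with upper quartile scaling or median centring, 0 without a filter, with the length correction or with no variance trend, and 0 to 6 when 1 animal was left out. The cause of these changes was not tested. The beta subunit and calcium pump sums stayed at 90.1% to 97.4% and 86.2% to 91.2% of the CrT+/y mean when 1 animal was left out. With upper quartile scaling they were at 97.0% and 92.3%. Before that scaling, the upper quartile of the tested genes was 25.75 to 25.99 FPKM in CrT-/y and 26.63 to 27.49 FPKM in CrT+/y animals.

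Animals with the same number did not deviate together (correlations of -0.08, 0.05 and -0.05 for numbers 1, 2 and 3), so the numbers were not taken to pair the animals. With a replicate block on these numbers, in which CrT-/y replicate 0 has no partner and adds nothing to the genotype difference, 576 tested genes, 0 pump genes and 0 partner genes were called, and 343, 0 and 0 with the length correction as well. *Atp1b2* then had a log2 fold change of -0.38 (limma adjusted p = 0.111) and -0.34 (0.126). No counting error was computed from the FPKM values.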
